A study of Mus musculus with 8 samples.

Results

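The neurotrophins and their receptors were described here in mouse embryonic stem cells (ESC) and in their retinoic acid-differentiated progeny (RA-DIFF). The set comprised the 7 genes Bdnf, Ntf3, Ntf5, Ntrk2, Ntrk3, Ngfr and Sort1, picked by symbol from the 32567 genes of the RNA-seq count table, and all 7 had at least 1 count in each of the 4 RNA-seq libraries. The study examined what loss of huntingtin, the protein of the Huntington's disease gene Htt, does to long and short RNAs before and after differentiation. Polyadenylated RNA and small RNA were each sequenced from 4 conditions, with 1 library per condition. The ESC were a wild-type parental line and a huntingtin-null line homozygous for the Hdh ex4/5 targeted allele, here called Htt-null, both grown with leukemia inhibitory factor. For RA-DIFF, the same 2 genotypes were grown without feeder cells for 4 passages, formed embryoid bodies over 8 days with 5 µM retinoic acid from day 4, and were collected 2 hours after plating. Each genotype was thus a single cell line, so that clone and genotype cannot be told apart.

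Neurotrophins are secreted proteins that keep neurons alive and shape their outgrowth and synapses. They are made as precursors, which proteases cut to the mature form. Mature BDNF and neurotrophin-4 (the product of Ntf5) act mainly through the receptor tyrosine kinase TrkB (Ntrk2), and neurotrophin-3 (Ntf3) mainly through TrkC (Ntrk3). All neurotrophins also bind the p75 receptor (Ngfr), which pairs with sortilin (Sort1) to bind the uncut precursors. Sortilin additionally sorts proteins, BDNF among them, inside the cell, and huntingtin is known to take part in the transcription and the transport of BDNF.

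With 1 library per condition the spread within a condition is unknown, differences were not tested and no p-value is given. An additive fit of genotype and state over the 4 libraries was not run. Levels are CPM, the counts of a gene relative to the library total, scaled by the trimmed mean of M values, and each ratio has a 95% interval that covers counting error only, not the spread between cultures. A gene was called past the limit when its log2 ratio, with a prior count of 2, was above 0.75 in size and the mean log2 CPM of the 4 libraries was above 0, as it was for 14417 genes. Of the members, 5 of 7 met the expression limit and could be called. Ntf3 and Ntf5 were too low on average to be called, with 2 to 9 counts in their lowest libraries, and the floor was taken as 3 counts. Library totals ranged from 63617410 to 110569127 counts, so that 3 counts corresponded to 0.0268 to 0.046 CPM.

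The targeted gene was read first. Htt had 14385 counts in wild-type and 7260 in Htt-null ESC (166 and 111 CPM), but 8212 in the labelled wild type RA-DIFF library and 9722 in the one labelled Htt-null (73.3 and 98.7 CPM). In RA-DIFF the gene was therefore higher in the library labelled Htt-null, which goes against the label. The count covers the whole gene, exons outside the targeted ones included, and is a limited check. The study's supplementary values per condition match the deposited RA-DIFF columns the other way round. Samples are called here by their deposited labels, and if the RA-DIFF labels were exchanged every difference between these libraries would keep its size and turn its sign, and the ratios of RA-DIFF over ESC would change as well.

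The promoters of 3 members are shown because these genes had higher counts in RA-DIFF than in ESC, and for Bdnf the window with the retinoid receptor motif was taken. Each is a RefSeq window of 300 bases on GRCm38.p6, from 250 before to 50 after an annotated start, written 5′ to 3′ on the strand of the gene. Capitals mark matches on either strand to CGTCA (part of the cAMP response element), AGGTCA (the core motif of retinoid receptors), CANNTG (the E-box) and GGGCGG (the GC box).
Ntrk2, chr13:58806319-58806618, plus strand: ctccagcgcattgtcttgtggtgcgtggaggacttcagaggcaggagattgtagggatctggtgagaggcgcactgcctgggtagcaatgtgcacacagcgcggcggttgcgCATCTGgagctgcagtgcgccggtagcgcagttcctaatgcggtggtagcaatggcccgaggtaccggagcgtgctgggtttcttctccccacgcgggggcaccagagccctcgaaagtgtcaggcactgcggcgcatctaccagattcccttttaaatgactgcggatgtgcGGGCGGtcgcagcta
Ntf3, the first of 2 windows, chr6:126166695-126166994, minus strand: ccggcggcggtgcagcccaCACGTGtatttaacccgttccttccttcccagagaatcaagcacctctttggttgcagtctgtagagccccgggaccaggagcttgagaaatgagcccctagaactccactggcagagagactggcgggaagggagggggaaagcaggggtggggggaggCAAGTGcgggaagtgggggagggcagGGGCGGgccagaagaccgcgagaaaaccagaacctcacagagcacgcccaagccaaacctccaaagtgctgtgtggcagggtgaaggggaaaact
Bdnf, the fourth of its windows, chr2:109692777-109693076, plus strand: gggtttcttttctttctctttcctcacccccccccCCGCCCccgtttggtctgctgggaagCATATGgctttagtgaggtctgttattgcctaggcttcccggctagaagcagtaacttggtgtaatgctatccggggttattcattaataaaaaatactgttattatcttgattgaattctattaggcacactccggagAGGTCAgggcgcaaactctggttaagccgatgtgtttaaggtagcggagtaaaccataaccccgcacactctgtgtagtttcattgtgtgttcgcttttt
Windows were held for 4 of the 7 members, 11 in all, of which 7 belonged to Bdnf, a gene with many alternative promoters. AGGTCA occurred in 1 of the 11 windows, the Bdnf window printed, and CGTCA in 1, the third Bdnf window at chr2:109692186-109692485. Among all 32851 windows of this length, 16.3% held AGGTCA, 20.8% CGTCA, 72.3% an E-box and 35.7% a GC box. The Ntrk2 window had 1 E-box and 1 GC box, the first Ntf3 window 2 E-boxes and 1 GC box, the second, at chr6:126164911-126165210, 1 E-box and 2 GC boxes, and that of Ngfr 2 E-boxes and 4 GC boxes. Counts per gene do not tell which start was used, and a match is a description of the sequence only.

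**Figure D1:**
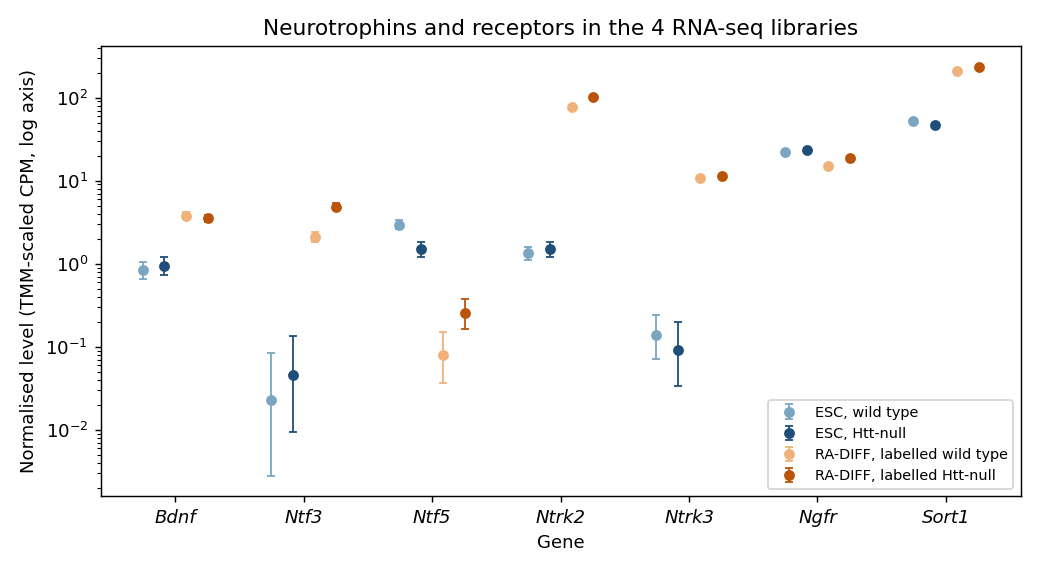
Normalised level of each gene in each RNA-seq library, as scaled CPM on a log axis; bars are exact 95% Poisson intervals for counting error. Bdnf, Ntf3, Ntrk2, Ntrk3 and Sort1 are higher in both RA-DIFF libraries than in both ESC libraries, and Ntf5 and Ngfr are lower. The share of all genes separated in this way was not counted.

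Of the 5 members that could be called, 4 were higher in RA-DIFF than in ESC in the lines labelled wild type (Bdnf, Ntrk2, Ntrk3 and Sort1), where 32.4% of all tested genes were higher, 24.9% were lower and 57.3% passed the limit in either direction. In the lines labelled Htt-null the same 4 were higher, where 32.9% of all tested genes were higher, 23.5% were lower and 56.3% passed in either direction. Of these, Bdnf and Ntrk3 had a log2 CPM below 0 in both ESC libraries. They met the expression limit only through their RA-DIFF levels, so that being callable favoured a call as higher. The same holds for any other tested gene this low in both ESC libraries, in the lists below and in the background. Most tested genes passed the limit for a call in these comparisons of RA-DIFF with ESC, so that the members stand against a high background. The median log2 ratio of all tested genes was 0.11 and 0.16 in these comparisons, and -0.20 and -0.25 with upper-quartile scaling. Between the genotypes, 0 of 5 members passed the limit in ESC, where 6.57% of all tested genes did (3.93% higher and 2.64% lower), and 0 of 5 in RA-DIFF, where 18.3% did (11.0% higher and 7.37% lower). When the expression limit was instead set on edgeR's average log2 CPM, an alternative chosen after seeing the data, all 7 members could be called. Then 6 of 7 passed in each comparison of RA-DIFF with ESC (60.1% and 59.2% of 15492 genes), Ntf3 being higher and Ntf5 lower beside the 4 above. Of those genes 33.9% and 34.3% were higher and 26.1% and 24.8% lower. Between the genotypes 1 passed in ESC (8.61% of genes, 5.14% higher and 3.47% lower), with Ntf5 lower in Htt-null, and 2 in RA-DIFF (20.7%, 11.7% higher and 8.99% lower), with Ntf3 and Ntf5 higher in the library labelled Htt-null. The comparisons share libraries, since each ESC and each RA-DIFF library enters 2 of them.

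Bdnf, the gene of brain-derived neurotrophic factor (ENSMUSG00000048482, GRCm38 chr2:109674700-109727007, plus strand), was present at low level throughout. Its counts were 72 in wild-type ESC, 62 in Htt-null ESC, 426 in the labelled wild type RA-DIFF library and 346 in the one labelled Htt-null. In neither state did the genotypes separate beyond counting error. In the lines labelled wild type Bdnf was 4.58-fold higher in RA-DIFF (95% counting interval 3.56 to 5.96), and in those labelled Htt-null 3.70-fold higher (2.81 to 4.93). Htt-null ESC differed from wild-type ESC by a log2 ratio of 0.20 (-0.32 to 0.71), and the RA-DIFF libraries by -0.11 by the labels (-0.32 to 0.09). These intervals leave room for a Bdnf level in Htt-null ESC between 0.802 and 1.63 times that of wild type, so that a smaller difference was not detectable at this depth.

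Ntf3, the gene of neurotrophin-3 (ENSMUSG00000049107, chr6:126101413-126166744, minus strand), was almost silent in ESC. Its counts were 2 in wild-type and 3 in Htt-null ESC, then 235 and 480 in the RA-DIFF libraries labelled wild type and Htt-null. Both ESC libraries were at or under the floor, and no ratio between them is given. Against those few counts, the level in RA-DIFF was 90.9-fold higher in the lines labelled wild type (24.9 to 755) and 106-fold higher in those labelled Htt-null (36.0 to 516). With a prior count of 2 the log2 ratios were 5.55 and 6.17, and with the RA-DIFF labels exchanged 6.76 and 4.96. Between the RA-DIFF libraries Ntf3 was 2.32-fold higher in the one labelled Htt-null (1.98 to 2.73), a log2 ratio of 1.22 (0.99 to 1.45). This was the largest difference between the RA-DIFF libraries among members with at least 100 counts in either of them.

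Ntf5, the gene of neurotrophin-4 (ENSMUSG00000074121, chr7:45413695-45417178, plus strand), went the other way and was the only ligand of the set with a higher level in ESC. Its counts were 256 in wild-type ESC, 98 in Htt-null ESC, 9 in the labelled wild type RA-DIFF library and 25 in the one labelled Htt-null. The levels were 2.95, 1.50, 0.0803 and 0.254 CPM. The log2 ratio of RA-DIFF over ESC was -5.20 in the lines labelled wild type (-6.35 to -4.25) and -2.57 in those labelled Htt-null (-3.26 to -1.92). With a prior count of 2 these were -4.86 and -2.47, and with the RA-DIFF labels exchanged -3.43 and -3.90, so that the labels decide which line had the larger difference. In ESC the Htt-null level was lower, with a log2 ratio of -0.97 (-1.33 to -0.63). In RA-DIFF the library labelled Htt-null was 3.16-fold higher (1.43 to 7.70), on 25 against 9 counts. The genotype difference in Ntf5 thus had opposite signs in ESC and RA-DIFF by the labels, and the same sign if the RA-DIFF labels were exchanged.

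Ntrk2, the gene of TrkB (ENSMUSG00000055254, chr13:58806596-59133970, plus strand), was the Trk gene with the highest counts in RA-DIFF. It had 116 counts in wild-type ESC, 97 in Htt-null ESC, 8622 in the labelled wild type RA-DIFF library and 10038 in the one labelled Htt-null. The level went from 1.34 and 1.49 CPM in ESC to 76.9 and 102 CPM in RA-DIFF. The ratio of RA-DIFF over ESC was 57.5-fold in the lines labelled wild type (47.9 to 69.7) and 68.5-fold in those labelled Htt-null (56.1 to 84.6). Between the RA-DIFF libraries it was 1.32-fold higher in the one labelled Htt-null (1.29 to 1.36), beyond counting error but not past the limit. In ESC the genotypes did not separate, with a log2 ratio of 0.15 (-0.25 to 0.55).

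Ntrk3, the gene of TrkC (ENSMUSG00000059146, chr7:78192362-78578408, minus strand), was near the floor in ESC with 12 counts in wild type and 6 in Htt-null. In RA-DIFF it had 1196 counts in the library labelled wild type and 1124 in the one labelled Htt-null. The ratio of RA-DIFF over ESC was 77.1-fold (44.0 to 150) and 124-fold (56.8 to 339), and these wide intervals overlap. The RA-DIFF libraries, at 10.7 and 11.4 CPM, did not differ beyond counting error, with a log2 ratio of 0.10 (-0.02 to 0.22). TrkB and TrkC are each made in forms with and without the kinase domain, and counts per gene do not separate these forms.

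Ngfr, the gene of the p75 receptor (ENSMUSG00000000120, chr11:95568818-95587735, minus strand), was the member with the smallest difference between RA-DIFF and ESC. Its counts were 1943 in wild-type and 1515 in Htt-null ESC, 1678 in the labelled wild type RA-DIFF library and 1867 in the one labelled Htt-null. The levels, 22.4 and 23.2 CPM in ESC and 15.0 and 19.0 CPM in RA-DIFF, stayed within a narrow band, with the ESC values above the RA-DIFF values. The log2 ratio of RA-DIFF over ESC was -0.58 in the lines labelled wild type (-0.68 to -0.49) and -0.29 in those labelled Htt-null (-0.39 to -0.19). With upper-quartile scaling the first became -0.89 and passed the limit. Between the RA-DIFF libraries Ngfr was 1.27-fold higher in the one labelled Htt-null (1.18 to 1.35).

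Sort1, the gene of sortilin (ENSMUSG00000068747, chr3:108284082-108361511, plus strand), was the most abundant member by counts in every library. It had 4491 counts in wild-type ESC, 3079 in Htt-null ESC, 23462 in the labelled wild type RA-DIFF library and 23133 in the one labelled Htt-null. The levels were 51.8 and 47.2 CPM in ESC and 209 and 235 CPM in RA-DIFF. RA-DIFF was 4.04-fold higher in the lines labelled wild type (3.92 to 4.18) and 4.98-fold higher in those labelled Htt-null (4.79 to 5.17). The genotype differences were small, with log2 ratios of -0.13 in ESC (-0.20 to -0.07) and 0.17 in RA-DIFF by the labels (0.14 to 0.19). The antisense gene Gm12523, whose exons overlap those of Sort1, had 0 to 9 counts per library, and Bdnf has an antisense neighbour, Gm45346, that is not among the counted genes.

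**Figure D2:**
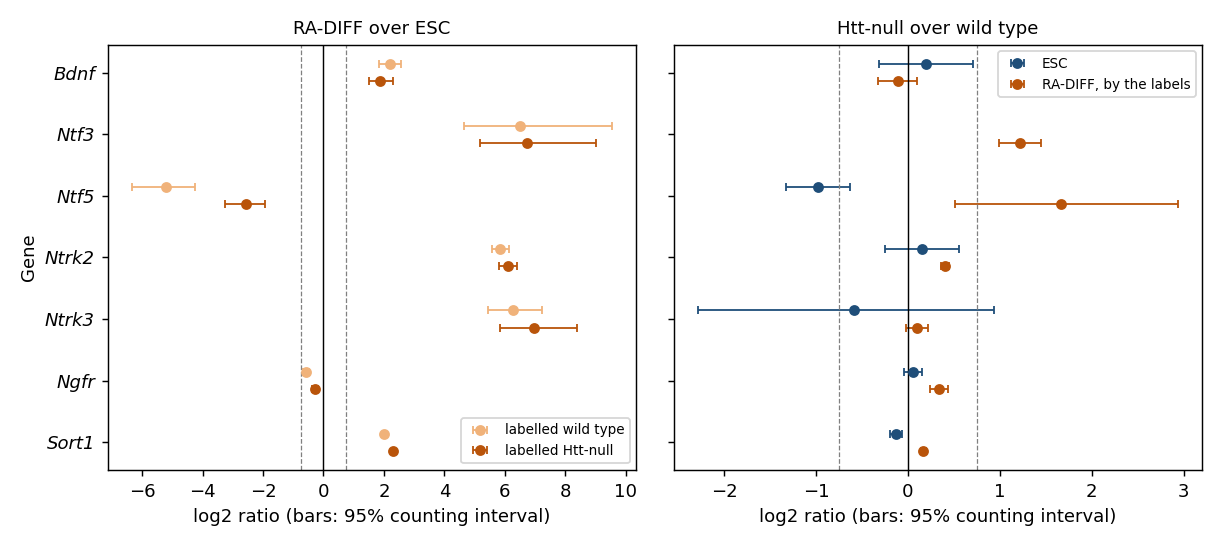
Log2 ratio of each gene for RA-DIFF over ESC (left) and for Htt-null over wild type (right), with exact 95% counting intervals; dashed lines mark the limit of 0.75 on either side of 0. On the left Ntf3, Ntrk2 and Ntrk3 lie far to the right of 0 (5.85 to 6.96) and Ntf5 to the left (-5.20 and -2.57), while on the right Ntf3 and Ntf5 alone exceed the limit, Ntf3 in RA-DIFF and Ntf5 in both states; no ratio is drawn for Ntf3 in ESC, where both counts were at or under the floor.

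Per kilobase of exon, which allows genes to be compared, Sort1 and Ngfr led in ESC at 6.84 and 6.50 CPM per kb in wild type, with overlapping counting intervals. Next came Ntf5 (1.11), Bdnf (0.134) and Ntrk2 (0.0694), each separated from its neighbours, while Ntrk3 (0.0188) and Ntf3 (0.0149) overlapped. In Htt-null ESC the order was Ngfr (6.74), Sort1 (6.24), Ntf5 (0.566), Bdnf (0.153), Ntrk2 (0.0772), Ntf3 (0.0297) and Ntrk3 (0.0125) CPM per kb, and the first pair and the last 3 overlapped with a neighbour. In the labelled wild type RA-DIFF library Sort1 led at 27.7 CPM per kb, followed by Ngfr (4.35), Ntrk2 (3.99), Ntrk3 (1.45), Ntf3 (1.36), Bdnf (0.611) and Ntf5 (0.0303), and Ntrk3 and Ntf3 overlapped. In the one labelled Htt-null the order was Sort1 (31.0), Ngfr (5.50), Ntrk2 (5.29), Ntf3 (3.15), Ntrk3 (1.55), Bdnf (0.565) and Ntf5 (0.0957), and Ngfr and Ntrk2 overlapped. The order of Ngfr and Ntrk2 depends on the length used, since with the longest transcript in place of all exons Ntrk2 stood above Ngfr in both RA-DIFF libraries.

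Among the 3 ligands, the predominant transcript changed from Ntf5 to Ntf3. Ntf5 made up 88.2% of their summed level per kb in wild-type ESC and 75.6% in Htt-null ESC, and 1.52% and 2.51% in the RA-DIFF libraries labelled wild type and Htt-null. Ntf3 went from 1.18% and 3.97% to 67.9% and 82.7%. Bdnf took 10.6% and 20.4% in ESC and 30.6% and 14.8% in RA-DIFF, so that its lower share in the library labelled Htt-null went with a higher Ntf3 and a like Bdnf level. Among the receptors, Ngfr was 98.7% of the summed level of Ntrk2, Ntrk3 and Ngfr in both ESC libraries and 44.4% and 44.6% in RA-DIFF, where Ntrk2 held 40.8% and 42.9% and Ntrk3 14.8% and 12.6%. By the longest transcript Ntrk2 was the leading receptor in RA-DIFF, with 55.6% and 58.2%, and Ngfr held 27.5% in both libraries.

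**Figure D3:**
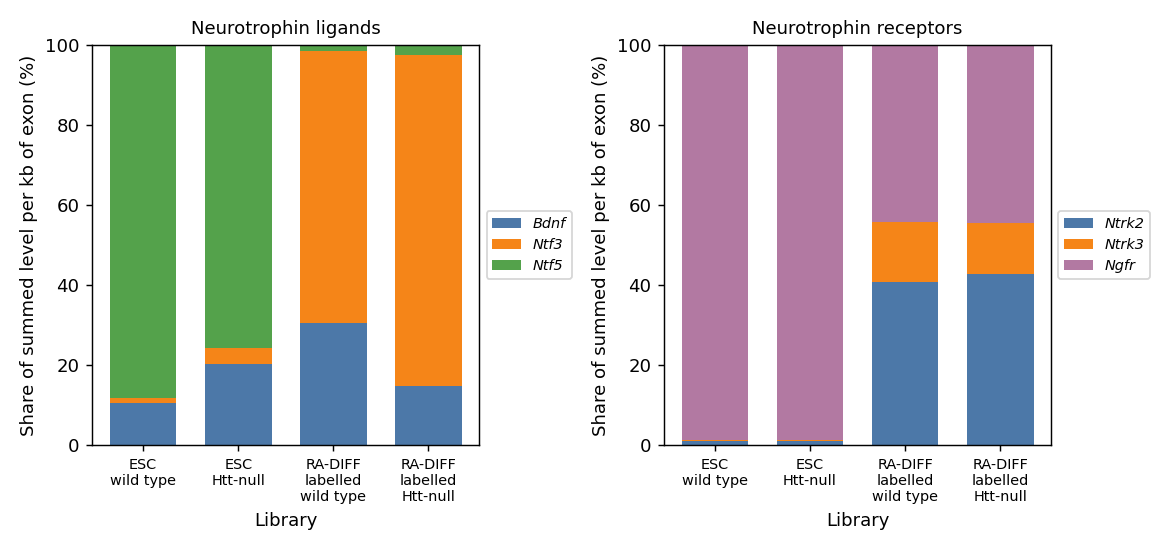
Share of each gene in the summed level per kb of exon of the 3 ligands (left) and of the 3 receptors Ntrk2, Ntrk3 and Ngfr (right), 1 stacked bar per library. Ntf5 fills most of the ligand bar in ESC and Ntf3 in RA-DIFF, and the receptor bars go from almost all Ngfr to a mixture of Ngfr, Ntrk2 and Ntrk3, whose leading gene in RA-DIFF depends on the length used.

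The genes that process, assist or act downstream of neurotrophins were read as 8 lists of 86 genes, the GDNF family included, of which 71 met the expression limit. In RA-DIFF over ESC, 36 were higher and 13 lower in the lines labelled wild type (69% past the limit against 57.3% of all tested genes, median log2 ratio 0.78 against 0.11), and 34 were higher and 13 lower in those labelled Htt-null (66.2% against 56.3%, median 0.58 against 0.16). Between the genotypes, 4 were higher and 3 lower in Htt-null ESC (9.86% against 6.57%, median -0.09 against -0.04), and 13 were higher and 7 lower in the labelled Htt-null RA-DIFF library (28.2% against 18.3%, median 0.06 against -0.01).

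Of the 7 tested partners of p75 and sortilin, 6 were higher in RA-DIFF in the lines labelled wild type and 5 in those labelled Htt-null, with 1 lower in each, where 32.4% and 32.9% of all tested genes were higher and 24.9% and 23.5% lower. Sorcs1, a receptor related to sortilin, had 13 and 1 counts in ESC and 7421 and 11167 in RA-DIFF. Sorcs2, another relative that binds precursors together with p75, was higher in the labelled Htt-null RA-DIFF library (8147 against 5208 counts, log2 ratio 0.83). Maged1, which binds the inner part of p75, was higher in RA-DIFF in the lines labelled wild type with a log2 ratio of 2.35. Sorl1, a sorting receptor of the same family, was lower in RA-DIFF, with log2 ratios of -3.52 and -2.26. Lingo1, a co-receptor of p75, was lower in the labelled Htt-null RA-DIFF library (1135 against 2591 counts).

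Of the 10 tested genes that process the precursors, 6 were higher and 3 lower in RA-DIFF in the lines labelled wild type, and 7 were higher and 3 lower in those labelled Htt-null, against the same shares of 32.4% and 32.9% higher and 24.9% and 23.5% lower over all tested genes. Plat, tissue plasminogen activator, which activates the plasmin that cuts proBDNF, had 39 and 56 counts in ESC and 12165 and 25927 in RA-DIFF. The convertase Furin, which cuts precursors inside the cell, was higher in the labelled Htt-null RA-DIFF library (7694 against 3935 counts, log2 ratio 1.15). Pcsk2, a convertase of neuroendocrine cells, was lower there (654 against 2625 counts, log2 ratio -1.82), while Pcsk1 and Pcsk6 were lower in RA-DIFF than in ESC, with 201 and 90 counts and 6822 and 1152 counts in the lines labelled wild type. Cpe, carboxypeptidase E, went from 600 to 37123 counts in the lines labelled Htt-null, a log2 ratio of 5.35.

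Of the 5 genes that modulate Trk receptors, 3 were higher in RA-DIFF in either comparison, against 32.4% and 32.9% of all tested genes. Slitrk5, a partner of TrkB, had 62 and 98 counts in ESC and 5111 and 1627 in RA-DIFF. Lrig1, a transmembrane regulator of receptor kinases, had 20168 and 33738 counts in RA-DIFF, a log2 ratio of 0.93 between the libraries.

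Among 19 adaptors and associated signalling proteins of active Trk receptors, 8 were higher and 2 lower in RA-DIFF in the lines labelled wild type. In those labelled Htt-null 7 were higher and 2 lower. These shares are near or below those of all tested genes, of which 57.3% and 56.3% passed in either direction. Shc3, a neuronal Shc adaptor, had 6 and 14 counts in ESC and 1530 and 2717 in RA-DIFF, and Dok5 23 and 20 in ESC and 980 and 1286 in RA-DIFF. Gab1, a docking protein, was lower in RA-DIFF with log2 ratios of -2.20 and -2.12, while Shc2 (-1.36), Sh2b2 (-0.98), Shc1 (0.84) and Shc3 (1.01) passed the limit between the RA-DIFF libraries. Among 19 kinases and related signalling genes, 10 and 9 were higher in RA-DIFF and 3 lower in each comparison, again beside 57.3% and 56.3% of all tested genes past the limit. Akt1, a survival kinase, was higher with log2 ratios of 2.62 and 3.11, and Rps6ka1 lower with -2.65 and -2.60. Between the genotypes 0 of 19 passed in ESC and 1 in RA-DIFF, where 6.57% and 18.3% of all tested genes did; the latter was Pik3r1, a regulatory subunit of phosphoinositide 3-kinase, with a log2 ratio of 0.97.

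Of the 7 tested genes that neurotrophins and other stimuli induce, 2 were higher and 3 lower in RA-DIFF in the lines labelled wild type, and 2 were higher and 2 lower in those labelled Htt-null, where 57.3% and 56.3% of all tested genes passed in either direction. Between the RA-DIFF libraries 3 of 7 were higher and 1 lower in the one labelled Htt-null (median 0.71), where 11.0% of all tested genes were higher and 7.37% lower, and in ESC 1 of 7 was lower (2.64% of all tested genes). Egr1, an immediate early transcription factor, had 2344 and 652 counts in ESC and 4603 and 15248 in RA-DIFF, and Fos had 1103 and 3475 in RA-DIFF. Vgf, a secreted neuropeptide precursor, was lower in the labelled Htt-null RA-DIFF library (158 against 319 counts, log2 ratio -0.82). Arc, a synaptic immediate early gene, was lower in RA-DIFF than in ESC with log2 ratios of -2.73 and -1.57.

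**Figure D4:**
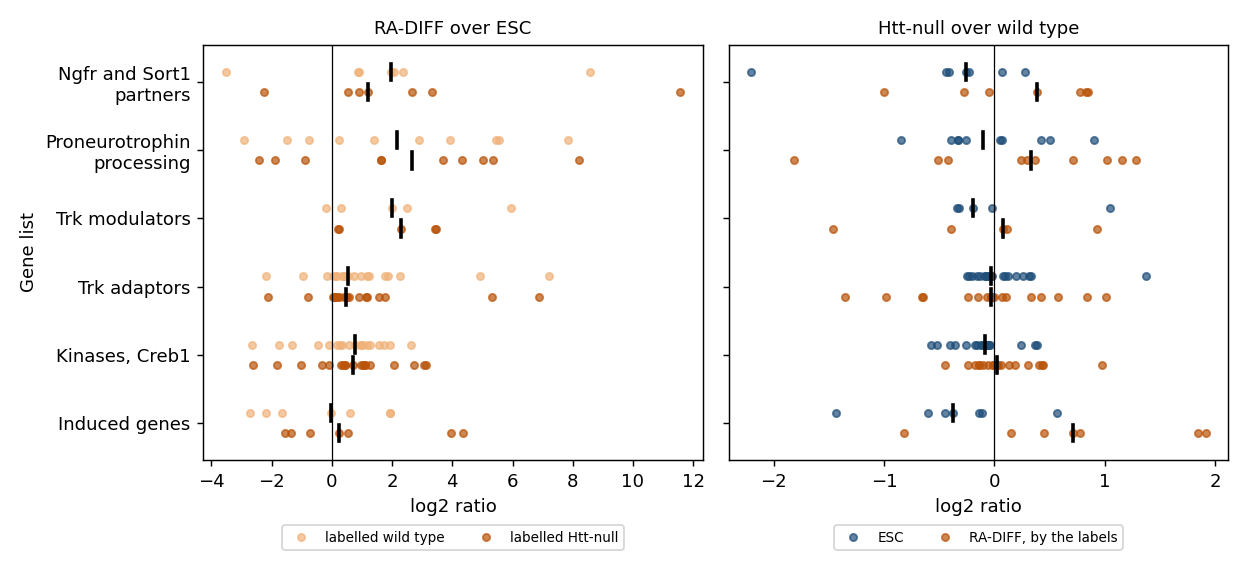
Log2 ratio of each tested gene of 6 neurotrophin pathway lists, for RA-DIFF over ESC (left) and Htt-null over wild type (right); each point is a gene and each black bar the median of the list. On the left the medians of the partner, processing and modulator lists lie above 1, while on the right the induced genes have the highest RA-DIFF median (0.71) and the lowest ESC median (-0.38).

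Markers of cell types moved between the same libraries. The summed level of 12 neuron markers was 294 and 334 CPM in ESC and 3033 and 1435 CPM in the RA-DIFF libraries labelled wild type and Htt-null, and 1 of 12 was higher in the latter. The 8 neural progenitor markers summed to 123 and 125 CPM in ESC and 2726 and 2769 CPM in RA-DIFF, where 4 of 8 were higher in the labelled Htt-null library (Nes, Sox3, Fabp7 and Notch1, with log2 ratios of 0.05 to 0.53). Of the 8, 0 passed the limit as higher there and 3 as lower (Sox1 -0.89, Pax6 -0.79 and Hes5 -1.57), beside 11.0% and 7.37% of all tested genes. The 13 mesenchyme markers summed to 750 CPM in the labelled wild type RA-DIFF library and 2903 CPM in the one labelled Htt-null, with 13 of 13 higher in the latter, and Lum and Dcn at 0 in an ESC library each. The 8 glia markers summed to 443 and 991 CPM in RA-DIFF. Slc1a3, Aldh1l1, Olig1 and Olig2 were higher in the labelled Htt-null library and Gfap, Mbp, Mog and Aqp4 lower. Of the 7 glia markers tested, 4 passed the limit as higher and 2 as lower (median log2 ratio 1.135), beside 11.0% and 7.37% of all tested genes. For the other lists, the sums in the RA-DIFF libraries labelled wild type and Htt-null were 92.6 and 40.2 CPM for sensory neurons, 2.12 and 1.65 for motor neurons, 174 and 68.2 for neural crest and 23.9 and 88.6 for endothelium. In the same order, 5 of 10, 3 of 6, 2 of 8 and 5 of 6 markers were higher in the one labelled Htt-null. The lower sensory neuron sum rests mainly on Neurog2, at 38.2 and 3.01 CPM, and Pou4f1, at 31.4 and 3.52 CPM. Of that list 4 of 8 tested genes passed as higher and 1 as lower (median log2 ratio 0.73), beside the same 11.0% and 7.37%. Neurog2, Pax3, Emcn, Aqp4 and Olig2 were at 0 in at least 1 ESC library, and no listed marker was at 0 in RA-DIFF. The 6 pluripotency markers summed to 3518 and 3488 CPM in ESC and to 44.7 and 11.8 CPM in RA-DIFF. The higher Ntf3, Ntf5, Ntrk2 and Ngfr in the labelled Htt-null RA-DIFF library thus went with more mesenchyme and less neuron and pluripotency marker RNA. The glia sum was higher there too, with 4 genes past the limit as higher and 2 as lower. The part of these markers in the result was not tested. In such bulk samples fewer cells of a type and less RNA per cell cannot be told apart.

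Small RNA was read for 13 miRNAs, listed because they are known in neurons or as regulators of members. Htt is not measured in small RNA, so that the labels of these libraries were not checked. Sequences are shown for 5 of them whose seed has a match in the 3′ UTR of a ligand gene, because the ligands differed in opposite directions between ESC and RA-DIFF. They are RefSeq mature sequences with the seed, bases 2 to 8, in capitals.
miR-10a-5p: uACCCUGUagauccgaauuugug
miR-10b-5p: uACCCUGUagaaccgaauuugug
miR-9-5p: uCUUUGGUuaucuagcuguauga
miR-182-5p: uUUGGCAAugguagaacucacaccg
miR-206-3p: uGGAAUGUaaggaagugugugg
miR-10a-5p and miR-10b-5p share a seed, and the others each have their own. The matches below come from the longest annotated 3′ UTR (GENCODE vM21), with the bases paired to the seed in capitals.
Bdnf, miR-10a-5p and miR-10b-5p, chr2:109724211-109724217: tatatacataACAGGGTaaattattca
Bdnf, miR-182-5p, chr2:109724397-109724403: tttgttgccgTTGCCAAgaattgaaaa
Bdnf, miR-206-3p, first of 3, chr2:109724365-109724371: agtctgcattACATTCCtcgataatgt
Ntf5, miR-9-5p, first of 2, chr7:45416125-45416131: aaaacaaaaaACCAAAGctggatgctg
The letters of the miR-10 match were found in 23.5% of UTRs within 25% of the length of that of Bdnf and those of miR-182-5p in 21.3% and of miR-206-3p in 18.2%, and the miR-9-5p match in 9.96% of UTRs within 25% of the length of that of Ntf5. Bdnf also had 1 match each for the seed shared by miR-125a-5p and miR-125b-5p (25.4% of UTRs of like length) and for that of miR-128-3p (36.1%), and Ntf5 had 1 for that of miR-30a-5p (11.2%). The Ntf3 UTR, of 314 bases, had no match to any of the seeds searched. Ntrk2 had 3 matches to the seed of miR-128-3p, and 56.5% of UTRs of like length held at least 1. For Ntrk3 no site is given, because most of its longest UTR lies outside the gene model that was counted.

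miR-10a-5p, located in a Hox gene cluster, was 0.181% and 0.0846% of miRNA counts in wild-type and Htt-null ESC and 38.4% and 41.5% in the RA-DIFF libraries labelled wild type and Htt-null. miR-10b-5p, its relative with the same seed, went from 0.257% and 0.209% to 41.5% and 41.7%. miR-182-5p was 21.5% and 14.1% in ESC and 0.831% and 0.680% in RA-DIFF. miR-9-5p, a miRNA of neural progenitors, was 0.0695% and 0.0797% in ESC and 0.785% and 1.23% in RA-DIFF. miR-206-3p, a muscle miRNA, had 0 counts in both ESC libraries and 15 and 19 in RA-DIFF, and miR-1a-3p 0, 3, 4 and 5 counts. Bdnf, with a match for miR-10, was higher in RA-DIFF together with these miRNAs, and it also has a match for miR-182-5p, which was lower there. Ntf5, with matches for miR-9-5p, was lower in RA-DIFF than in ESC while that miRNA was higher. Ntrk2 and Sort1, with 1 match each for miR-9-5p (38.4% and 33.1% of UTRs of like length), were higher in RA-DIFF together with it. Between the RA-DIFF libraries Ntf5 and miR-9-5p were each higher in the one labelled Htt-null, but they come from separate libraries, and the directions would be opposite if the RNA-seq labels alone were exchanged. In ESC the log2 ratio of miR-9-5p between the genotypes was -0.03 with scaling and 0.20 by library size, and in RA-DIFF 1.13 and 0.65. The part of the miRNAs in these levels was not tested. The listed miRNAs, miR-9-5p among them, depend on the scaling, and 41 of the 50 ratios with counts above the floor moved beyond counting error when library size alone was used. For miR-128-3p the log2 ratio of RA-DIFF over ESC in the lines labelled wild type was 0.92 with scaling and -0.25 by library size, and for miR-124-3p, 0.79 and -0.38. miR-125b-5p (2.77 and 1.60) and miR-132-3p (2.91 and 1.76) were higher by either scale, and miR-30a-5p (-1.64 and -2.81) and let-7b-5p (-2.69 and -3.82) lower. miR-125a-5p turned its direction with the scale. It was 0.135% and 0.0863% of counts in ESC and 0.0672% and 0.0685% in RA-DIFF, but its scaled log2 ratios of RA-DIFF over ESC were 0.16 and 1.54.

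The genes with the profile most like each member over the 4 libraries were found by the Euclidean distance of centred log2 CPM among 13151 protein-coding genes. Ntrk2 was nearest to Scube1 (distance 0.12) and Pcdhga8 (0.178), and Ntrk3 to En1 (0.271) and Gdpd2 (0.299). Ntf3 was nearest to Fgfbp3 (0.299) and Csdc2 (0.318), and Ntf5 to Gprc5a (0.356) and Myl4 (0.363). Ngfr lay close to Atp6v0e (0.0199) and Snx3 (0.0291), Sort1 to Cspg5 (0.0387) and Slc39a6 (0.0388), and Bdnf to B230118H07Rik (0.0394) and 4921536K21Rik (0.0497). With 4 points many genes can come this close, and the distances are a description only.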

How the data were processed

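RNA-seq and small RNA-seq were analysed for 4 conditions each, with 1 library per condition. For RNA-seq, a stranded dUTP library was aligned to GRCm38.p4 with TopHat2 2.0.14, and the authors counted reads per gene with HTSeq 0.6.1 and deposited raw counts. For small RNA, they trimmed adapters with cutadapt 1.3, mapped with BWA 0.7.5a-r418 and deposited raw counts per mature miRNA. The strand setting of the counting is not given in the sources used here. All columns were assigned to samples by name.

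Counts were scaled by TMM with edgeR 4.0.16 (R 4.3.3). Ratios used a prior count of 2 for calls, and exact binomial intervals (Clopper-Pearson) of 95% on the counts as printed. Levels have exact Poisson intervals. Intervals and the floor of 3 counts cover counting error only. A call needed a log2 ratio above 0.75 in size and a mean log2 CPM of the 4 libraries above 0. The study's methods give these limits, beside a p-value limit applied here only in the exact test, but do not say which average of log2 CPM is meant. The mean of logs was taken as the main reading and edgeR's average as an alternative, and the choice decides whether Ntf3 and Ntf5 can be called. The exact test at assumed dispersions of 0.1 and 0.01 was an alternative only, since 1 library per condition gives no estimate of spread within a condition. The calling step was tested on simulated data. Exon lengths (GENCODE vM21) were restricted to the span of each gene in the deposited table, since the annotation differs from that of the counting.

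Members and lists were chosen with earlier results of these data known. Named genes were the members, Htt, the listed miRNAs, the 2 nearest profiles of each member, and in each pathway list and comparison up to 2 genes with the largest increase and 2 with the largest decrease among those past the limit and with 100 or more counts in the higher of both libraries. Of the marker lists they were the genes at 0 and up to 3 with the largest change. The other glia and neural progenitor markers were named after their values were seen. Some listed genes are not reported here.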

Additional observations from a re-analysis of the deposited data

Results flagged for a closer look

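Between the genotypes, 3 of the 71 pathway genes above the expression limit differed in opposite directions in ESC and RA-DIFF, each past 0.75 in size in both states. Of the 62 cell type markers above that limit 10 did so as well, and of all 14417 tested genes 245 (1.70%). Of the members 0 of the 5 above the limit did so, and Ntf5, which is below it, did; without the limit the share over all 32567 genes was 4.34%. With 1 library per condition, the difference between the states was not tested. By the labels, Ntf5 differed in Htt-null by a log2 ratio of -0.96 for ESC and of 1.43 for RA-DIFF, on 256 and 98 counts and then 9 and 25. For Sorcs1, a relative of sortilin, it was -2.20 and 0.78, on 13 and 1 counts in ESC. For Slitrk5, a partner of TrkB, it was 1.05 and -1.46. For Egr1, an immediate early gene, it was -1.43 and 1.91. If the RA-DIFF labels were exchanged, Ntf5 and the other 3 would have the same direction in both states.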

How the results depend on the processing

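The count of members past the limit was 0 in ESC and 0 in RA-DIFF between the genotypes, and became 1 and 2 without an expression limit and likewise 1 and 2 with the limit on edgeR's average log2 CPM, an alternative chosen after seeing the data; fewer genes are held back by construction. The other counts stayed within 1.5 times under library size alone, DESeq2 size factors (DESeq2 1.42.0), upper-quartile scaling, a prior count of 0.5, a fold limit of 1, the exact test at both dispersions and exchanged RA-DIFF labels. Exchanging the labels cannot change the count between the RA-DIFF libraries, since each ratio keeps its size. A fold limit of 1 and the exact test, added to the call at assumed dispersions, can only lower a count. Of 27 member ratios all 27 kept their sign under each scaling and prior, with the largest shift 0.648, and 7 of 21 changed sign with the RA-DIFF labels exchanged, all of them between the RA-DIFF libraries. That exchange moved 15 of the 21 beyond counting error, by up to 2.86, and the RA-DIFF over ESC ratios of Ntf5 from -4.86 and -2.47 to -3.43 and -3.90. By the longest transcript, 6 of 28 places in the order per length and 11 shares moved, while 13 shares did not, and the RA-DIFF share of Ngfr went from 44.4% and 44.6% to 27.5%. The ESC and RA-DIFF libraries can be paired by genotype, but an additive fit of genotype and state was not run. Each condition has 1 library. Leaving out a library was not run, since it removes both comparisons that the library enters.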

Other observations

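The GDNF family, another group of neurotrophic factors and receptors, was mostly below the expression limit, with 3 of 9 genes tested. Gfra1, the co-receptor of GDNF, was higher in RA-DIFF, with 541 and 462 counts in ESC and 4390 and 3808 in RA-DIFF, and log2 ratios of 2.65 and 2.45. Gfra4 had 117 counts in wild-type and 163 in Htt-null ESC, a log2 ratio of 0.88, and 130 in the labelled Htt-null RA-DIFF library.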
